A study of Rattus norvegicus with 10 samples.

Results

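The 8 transcripts described here are Glycam1, Cr2, Ms4a1, Cd79b, Tnfrsf14, Rac2, Coro1a and Limd2, a group labelled as B cell and lymph node genes. They are 8 of the 17221 transcripts in the deposited table, and they were chosen by their very high level in 1 library, replicate 1 of the placebo group at 34 days, so that level is given as a description and carries no test. Polyadenylated RNA was measured in tissue from under the skin of 10 female Wistar rats, each rat giving 1 library, in 5 groups of 2. The samples are labelled as muscle, and the authors describe them as subcutaneous tissue in which muscle was included. All 10 rats, including those sampled before therapy, carried collagen-induced arthritis, brought on by immunising the animal with bovine type II collagen in Freund's adjuvant as a stand-in for rheumatoid arthritis. RA_0 was taken before therapy, AP_1h and AP_34d were taken 1 h and 34 days into acupuncture, in which a needle was inserted and twirled, and PLA_1h and PLA_34d were taken at the same times under placebo, a peritoneal injection of sterile saline. The ages of the rats are not given in the sources used here, and no library from a rat without arthritis was analysed here.

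B cells are lymphocytes that sense antigen with a surface immunoglobulin joined to the signalling chains Cd79a and Cd79b, and complement-coated antigen is sensed in addition by Cr2 (CD21), which works with Cd81. In a lymph node they gather in follicles, which they reach from the blood through high endothelial venules, the vessels whose sulphated mucins, Glycam1 among them, slow passing lymphocytes. Skeletal muscle holds few lymphocytes and no such venules, while small lymph nodes lie in the fat under the skin.

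In this table Glycam1 is NM_012794 (rn4, chromosome 7, 142455642 to 142457902) and Cr2 is NM_001105989 (chromosome 13, 111083235 to 111113610). Ms4a1 is NM_001107578 (chromosome 1, 213763696 to 213770756) and Cd79b is NM_133533 (chromosome 10, 95703129 to 95706275). Tnfrsf14 is NM_001015034 (chromosome 5, 171727707 to 171735340) and Rac2 is NM_001008384 (chromosome 7, 116520066 to 116532482). Coro1a is NM_130411 (chromosome 1, 185852741 to 185857715) and Limd2 is NM_001025715 (chromosome 10, 95552509 to 95554534). The genes are scattered over 5 chromosomes, all 8 on the minus strand, and none overlapped another transcript of the table. Overlap with annotated transcripts outside the table was not checked. The nearest pair, Cd79b and Limd2, lay 148.6 kb apart with 8 transcripts between them.

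Since all 8 transcripts were highest in the same library, the stretch just upstream of their starts is shown for the 4 with an entry in the RefSeq promoter table of build GRCr8, namely Glycam1, Cr2, Coro1a and Limd2. Each line gives the 250 bases before the start, 5′ to 3′ along the gene's minus strand, with matches on either strand to the letters searched in capitals. The positions are chr7:136561300-136561549 for Glycam1, chr13:109244507-109244756 for Cr2, chr1:190731104-190731353 for Coro1a and chr10:91592160-91592409 for Limd2.
Glycam1: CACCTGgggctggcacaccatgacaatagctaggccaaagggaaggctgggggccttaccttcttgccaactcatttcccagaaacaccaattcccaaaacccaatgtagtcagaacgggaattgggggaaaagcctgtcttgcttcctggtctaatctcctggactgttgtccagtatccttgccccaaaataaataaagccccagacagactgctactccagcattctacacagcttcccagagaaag
Cr2: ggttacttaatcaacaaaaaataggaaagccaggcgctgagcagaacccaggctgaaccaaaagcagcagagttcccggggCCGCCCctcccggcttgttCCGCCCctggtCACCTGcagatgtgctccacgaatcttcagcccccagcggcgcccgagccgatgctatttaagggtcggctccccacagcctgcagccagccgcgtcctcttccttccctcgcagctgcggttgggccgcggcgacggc
Coro1a: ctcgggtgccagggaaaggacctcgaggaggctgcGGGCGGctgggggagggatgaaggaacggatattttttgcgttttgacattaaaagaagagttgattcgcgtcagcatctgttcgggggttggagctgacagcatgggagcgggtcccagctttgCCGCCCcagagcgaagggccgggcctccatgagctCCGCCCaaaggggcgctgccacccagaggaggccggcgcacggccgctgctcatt
Limd2: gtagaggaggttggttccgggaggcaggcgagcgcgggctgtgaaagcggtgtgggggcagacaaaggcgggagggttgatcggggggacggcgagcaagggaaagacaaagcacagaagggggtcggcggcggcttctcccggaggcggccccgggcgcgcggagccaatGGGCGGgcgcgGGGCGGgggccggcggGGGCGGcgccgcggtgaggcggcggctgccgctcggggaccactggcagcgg
The letters searched were the octamer ATGCAAAT, known from immunoglobulin promoters, the E box CAGGTG, the core GAGGAA of many Ets factor sites, and the GC box GGGCGG, and no matches of different motifs overlapped. The E box letters matched once in Glycam1 and once in Cr2, against 15.9% of 33469 upstream stretches of the same length in the table, and the GC box matched at 0 places in Glycam1, 2 in Cr2, 3 in Coro1a and 3 in Limd2, against 30.5% of stretches with at least 1. Neither the octamer, present in 1.56% of all stretches, nor the letters GAGGAA, present in 23.3%, matched in any of the 4. Base composition separated them more than the motifs did. Glycam1 was 50.4% G and C with 1 CG pair, near the median of 51.2% and below that of 5 pairs, whereas Limd2 was 76.0% G and C with 33 CG pairs, and Cr2 and Coro1a lay between at 63.6% and 63.2% with 19 pairs each. These are descriptions of the letters and say nothing of binding.

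Levels are in CPM, the deposited read counts per 1000000 reads scaled with a TMM factor for each library, and they are not compared between genes because exon lengths were not used here. The libraries held 5371687 to 8899521 reads, 1 read was worth 0.0991 to 0.239 CPM, and 3 reads were worth 0.297 to 0.716 CPM. Intervals below are exact 95% Poisson or binomial intervals and cover counting error only. The skeletal muscle genes Acta1 and Ckm were among the 4 transcripts of highest CPM in every library, and the summed level of 9 such genes was lowest in PLA_34d replicate 1, at 120888 CPM against 140844 to 336333 CPM in the other 9.

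PLA_34d replicate 1 stood apart from all other libraries, its partner included, in all 8 transcripts. It held 7824 of their reads, 0.115% of the library, whereas the other 9 held 50 to 469. Over the 8 transcripts it exceeded the highest of the other 9 libraries by a median log2 ratio of 4.53, from 2.77 for Rac2 to 5.38 for Glycam1, and all 8 were more than 4-fold above that library. Among all 10768 transcripts with at least 1 CPM in PLA_34d replicate 1, 368 (3.42%) were so, but the members were chosen for this level and nothing is read from the contrast. In bulk tissue a larger number of cells of a type and more RNA per cell cannot be told apart.

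**Figure D1:**
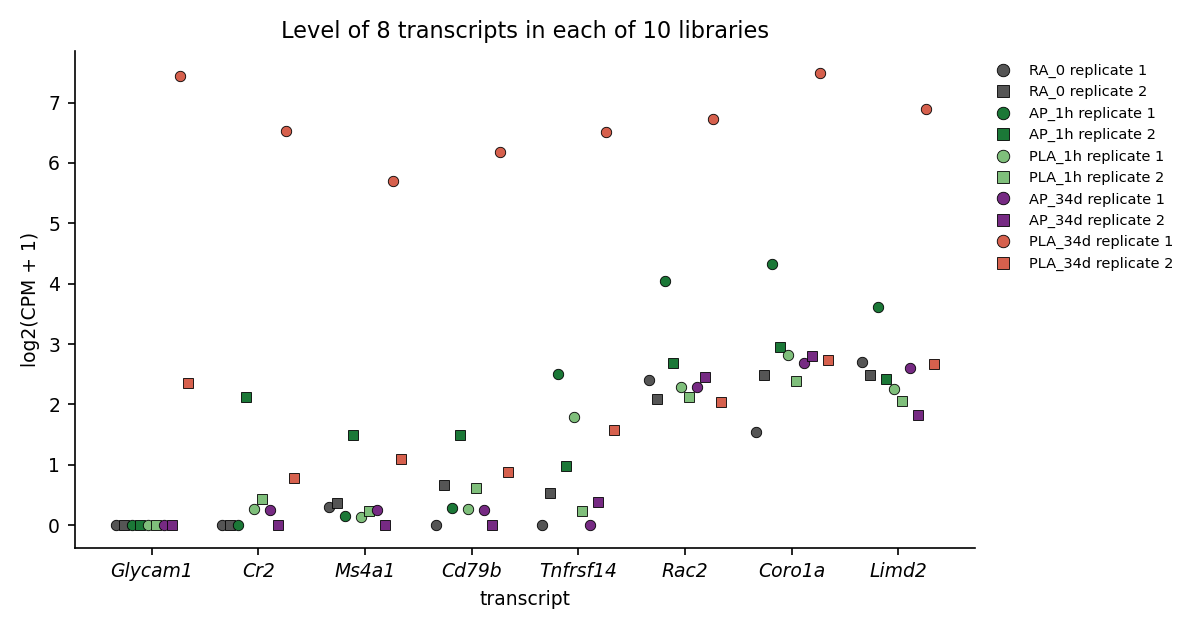
Level of each transcript, as log2(CPM + 1), in the 10 libraries, coloured by group, with circles for replicate 1 and squares for replicate 2. PLA_34d replicate 1 is highest for all 8 transcripts, the next point is an AP_1h library for 7 of them, and PLA_34d replicate 2 is the next for Glycam1.

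Glycam1 had the largest ratio to the next library, 41.7 (28.9 to 62.5). This interval overlaps that of Cd79b, 39.6 (23.0 to 74.8) against AP_1h replicate 2. Glycam1 encodes a secreted sulphated mucin, and it is made by high endothelial venules and also by milk-producing mammary epithelium. It was listed at 0 in both libraries of RA_0, AP_1h, PLA_1h and AP_34d, at 172 CPM (163 to 181) in PLA_34d replicate 1 and at 4.12 CPM (2.76 to 5.92, 29 reads) in PLA_34d replicate 2. Only the PLA_34d libraries held reads of it, and they differed from each other by 41.7-fold (28.9 to 62.5).

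The exact upper limit of the count of 0 was 0.366 to 0.880 CPM in the 8 other libraries. The level from the 29 reads of PLA_34d replicate 2 lay above that limit in every one of them. The PLA_34d libraries had a mean of 88.0 ± 119 CPM (SD, n = 2), a spread wider than the mean itself. The source of the 29 reads was not tested. Chst4 and Madcam1 were at or near 0 beside it. In the list of high endothelium and node stroma genes that holds both, 11 of 14 were highest in PLA_34d replicate 1, Chst4 among them. Chst4, the sulphotransferase of these venules, was at 0.224 CPM in PLA_34d replicate 1 and at 0 elsewhere, and Madcam1, an addressin of mucosal vessels, lay at 0 to 0.426 CPM throughout, with 0.224 CPM in PLA_34d replicate 1. Fut7, the fucosyltransferase of selectin ligands that leukocytes use as well, reached 5.72 CPM there against 0 to 1.19 CPM in the rest. Of the mammary genes, Csn1s1, Csn1s2a, Csn3 and Wap, which encode milk proteins, were at 0 in all 10 libraries, while Csn2 and Lalba each had 1 library with a read, at 0.108 CPM in AP_1h replicate 1 and 0.112 CPM in PLA_34d replicate 1 respectively.

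The 3 B cell transcripts shared a different second library. Cr2, the complement receptor of B cells and of follicular dendritic cells, was at 0 in both RA_0 libraries, 0 and 3.36 CPM in AP_1h replicates 1 and 2, 0.198 and 0.351 CPM in PLA_1h, 0.195 and 0 CPM in AP_34d, and 91.4 and 0.711 CPM in PLA_34d. AP_1h replicate 2 was thus the only library besides PLA_34d replicate 1 with more than 5 reads of Cr2, namely 24, and its own group partner had 0.

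Ms4a1 encodes CD20, a membrane protein that B cells carry from the pre-B stage until they become plasma cells. It was at 0.239 and 0.297 CPM in RA_0, 0.108 and 1.82 CPM in AP_1h, 0.0991 and 0.175 CPM in PLA_1h, 0.195 and 0 CPM in AP_34d, and 50.8 and 1.14 CPM in PLA_34d. Apart from AP_1h replicate 2 (13 reads) and the PLA_34d libraries (453 and 8 reads), each library had at most 2 reads.

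Cd79b, the signalling chain named above, gave the same order at the top. It was at 0 and 0.594 CPM in RA_0, 0.216 and 1.82 CPM in AP_1h, 0.198 and 0.526 CPM in PLA_1h, 0.195 and 0 CPM in AP_34d, and 72.0 and 0.853 CPM in PLA_34d. The ratio of PLA_34d replicate 1 to AP_1h replicate 2 was 39.6 (23.0 to 74.8) for Cd79b, 27.9 (16.2 to 52.9) for Ms4a1 and 27.2 (18.2 to 42.7) for Cr2, and these intervals overlap. For all 3 transcripts the groups AP_1h and RA_0 overlapped, because AP_1h replicate 1 was within or below the RA_0 range.

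The other 4 transcripts are expressed by leukocytes more widely and all had AP_1h replicate 1 in second place. Coro1a encodes coronin 1A, an actin regulator of blood cells that T cells need for survival. It was at 1.91 and 4.60 CPM in RA_0, 19 and 6.72 CPM in AP_1h, 6.05 and 4.21 CPM in PLA_1h, 5.47 and 5.98 CPM in AP_34d, and 178 and 5.69 CPM in PLA_34d. Both AP_1h libraries lay above both RA_0 libraries, though AP_1h replicate 2 differed little from the PLA_1h, AP_34d and PLA_34d replicate 2 libraries. How many of all transcripts part in this way was not counted, so nothing is read from it.

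Rac2 encodes the small GTPase through which blood cells drive migration and the oxidative burst. It was at 4.29 and 3.27 CPM in RA_0, 15.5 and 5.46 CPM in AP_1h, 3.87 and 3.33 CPM in PLA_1h, 3.91 and 4.48 CPM in AP_34d, and 105 and 3.13 CPM in PLA_34d. AP_1h did not overlap RA_0 or PLA_1h. The share of all transcripts with such a separation was not counted here either, so nothing is read from it. Leaving aside AP_1h replicate 1 and PLA_34d replicate 1, the values stayed between 3.13 and 5.46 CPM.

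Limd2, which encodes a small LIM domain protein, was at 5.49 and 4.60 CPM in RA_0, 11.2 and 4.34 CPM in AP_1h, 3.77 and 3.16 CPM in PLA_1h, 5.08 and 2.54 CPM in AP_34d, and 117 and 5.40 CPM in PLA_34d. AP_1h replicate 1 alone stood high among the other 9 libraries, and its partner was below both RA_0 libraries. Limd2 shared its highest and second library with Coro1a and Rac2, and the ratio of PLA_34d replicate 1 to AP_1h replicate 1 was 10.4 (8.52 to 12.9) for Limd2, 9.36 (8.01 to 11) for Coro1a and 6.81 (5.71 to 8.18) for Rac2.

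Tnfrsf14 encodes HVEM, the receptor of LIGHT (Tnfsf14) and of the inhibitory receptor Btla on lymphocytes. It was at 0 and 0.446 CPM in RA_0, 4.65 and 0.980 CPM in AP_1h, 2.48 and 0.175 CPM in PLA_1h, 0 and 0.299 CPM in AP_34d, and 90.6 and 1.99 CPM in PLA_34d. Replicates of 1 group lay far apart, 43 reads against 7 in AP_1h and 25 against 1 in PLA_1h. Its partners, named here after their values had been seen, were likewise highest in PLA_34d replicate 1, with Btla at 11.9 CPM there and 0 to 0.700 CPM elsewhere, and Tnfsf14 at 1.23 CPM there and 0 to 0.216 CPM elsewhere.

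**Figure D2:**
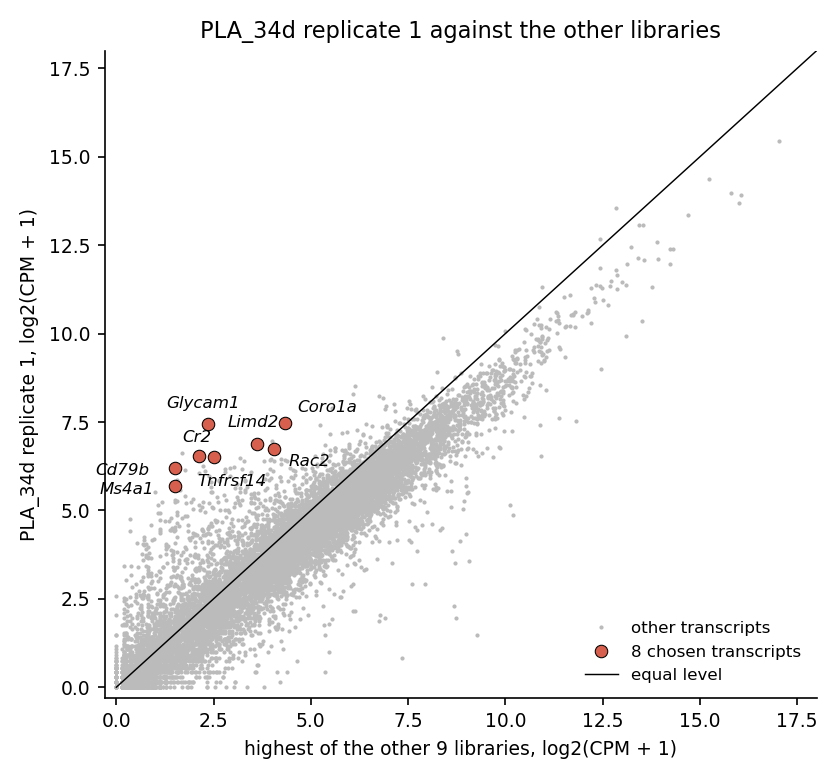
Level in PLA_34d replicate 1 against the highest level in the other 9 libraries, both as log2(CPM + 1), for all 17221 transcripts (grey) and the 8 chosen ones (red), with a line where both are equal. The 8 lie above the line, among a cloud of other transcripts that are also higher in this library.

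When PLA_34d replicate 1 was set aside, the highest of the remaining 9 libraries was AP_1h replicate 1 for 4 of 8 transcripts (Coro1a, Tnfrsf14, Rac2 and Limd2), AP_1h replicate 2 for 3 (Cr2, Ms4a1 and Cd79b) and PLA_34d replicate 2 for 1 (Glycam1). Of all 13666 transcripts with a read in these 9 libraries, 13.9% had their highest value in AP_1h replicate 1, 12% in AP_1h replicate 2 and 6.67% in PLA_34d replicate 2. The 3 B cell transcripts thus parted from the 4 wider leukocyte transcripts in which of the AP_1h rats led.

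This division was measured within each library as the share of Cr2, Ms4a1 and Cd79b reads among the reads of the 7 transcripts other than Glycam1. The share was 30.4% (29.2 to 31.5) in PLA_34d replicate 1, 28.6% (22.0 to 35.9) in AP_1h replicate 2 and 14.3% (8.83 to 21.4) in PLA_34d replicate 2. It was 0.640% (0.132 to 1.86) in AP_1h replicate 1, 3 of 469 reads, and 0% (0 to 4.06) in AP_34d replicate 2, where 0 of 89 reads were found. The remaining 5 libraries lay between 2.00% and 8.82%.

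The interval of AP_1h replicate 2, with 175 reads of these transcripts, thus covered that of PLA_34d replicate 1, with 6291 reads, although the libraries were far apart in amount. The AP_1h rats differed from each other beyond counting error in this share. The split into 3 and 4 transcripts follows what the genes are known for, but it was set with their values in view, so the shares are a description.

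**Figure D3:**
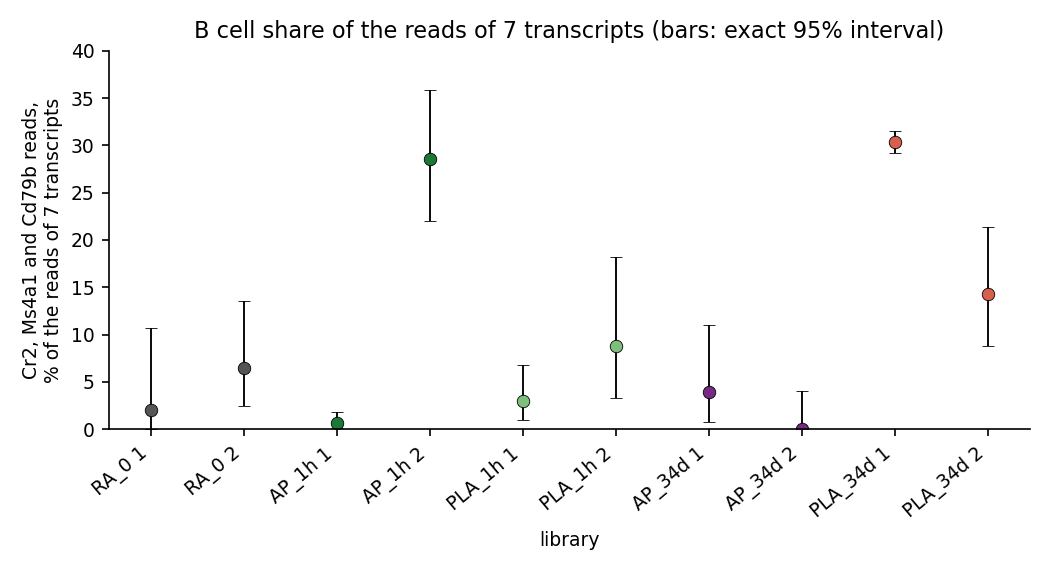
Share of Cr2, Ms4a1 and Cd79b reads among the reads of these and Coro1a, Tnfrsf14, Rac2 and Limd2, in percent, for each library, with exact 95% binomial intervals. AP_1h replicate 2 (28.6%) and PLA_34d replicate 1 (30.4%) are highest and AP_1h replicate 1 (0.640%) and AP_34d replicate 2 (0%) lowest.

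Whether treatment or time altered the transcripts was tested over 9 libraries, without PLA_34d replicate 1, whose level chose them. The 8 were chosen with earlier results of these data known, so the tests are not wholly independent of that choice. The test was limma on log2(CPM + 1) with a shared estimate of spread, PLA_34d entered as replicate 2 alone, and p-values were adjusted by the Benjamini-Hochberg method over the 10152 transcripts that reached 1 CPM in each library of 1 or more of the 4 complete groups. Coro1a, Rac2 and Limd2 passed this filter, whereas the other 5 of the 8 did not reach that level in these libraries and were left out.

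In none of the 6 comparisons was a tested transcript called at an adjusted p under 0.05. For AP_1h against RA_0, limma called 0 of the 3, where 0.0591% of all transcripts were called (6 of 10152), and 2 of the 3 had an unadjusted p under 0.05, as had 9.89% of all transcripts. For AP_1h against PLA_1h, 0 of the 3 were called and 1 had an unadjusted p under 0.05, with 0% of all transcripts called and 4.67% at that unadjusted p. For PLA_1h, AP_34d and PLA_34d replicate 2 against RA_0 and for AP_34d against PLA_34d replicate 2, both the 3 transcripts and the whole table had 0 calls (0%), and 0 of the 3 had an unadjusted p under 0.05, beside 3.01%, 5.1%, 1.55% and 2.71% of all transcripts in that order. Limma-voom, edgeR's quasi-likelihood test and DESeq2 on the recovered reads called 0 of the 3 in each comparison as well, with 1, 2 and 2 of them respectively at an unadjusted p under 0.05 for AP_1h against PLA_1h and 2 each for AP_1h against RA_0.

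Coro1a had its smallest p for AP_1h against RA_0, at 12.9 ± 8.70 CPM against 3.26 ± 1.91 CPM (SD, n = 2 each), a log2 difference of 1.62 (SE 0.50, limma adjusted p = 0.293). Without AP_1h replicate 1 the difference was 0.93. Rac2 had its smallest p for AP_1h against PLA_1h, at 10.5 ± 7.07 CPM against 3.60 ± 0.376 CPM (SD, n = 2 each), a log2 difference of 1.17 (SE 0.45, limma adjusted p = 0.951), which became 0.49 without AP_1h replicate 1. Limd2 stood at 7.79 ± 4.88 CPM against 3.46 ± 0.430 CPM (SD, n = 2 each) in the same comparison, a log2 difference of 0.86 (SE 0.46, limma adjusted p = 1.00), and 0.26 without AP_1h replicate 1. The limma p-values before adjustment were 0.00863 for Coro1a, 0.0263 for Rac2 and 0.0887 for Limd2, so that the first 2 passed 0.05 singly and none passed after adjustment over 10152 transcripts. All 3 differences were smaller without AP_1h replicate 1, that of Coro1a by the smallest proportion.

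**Figure D4:**
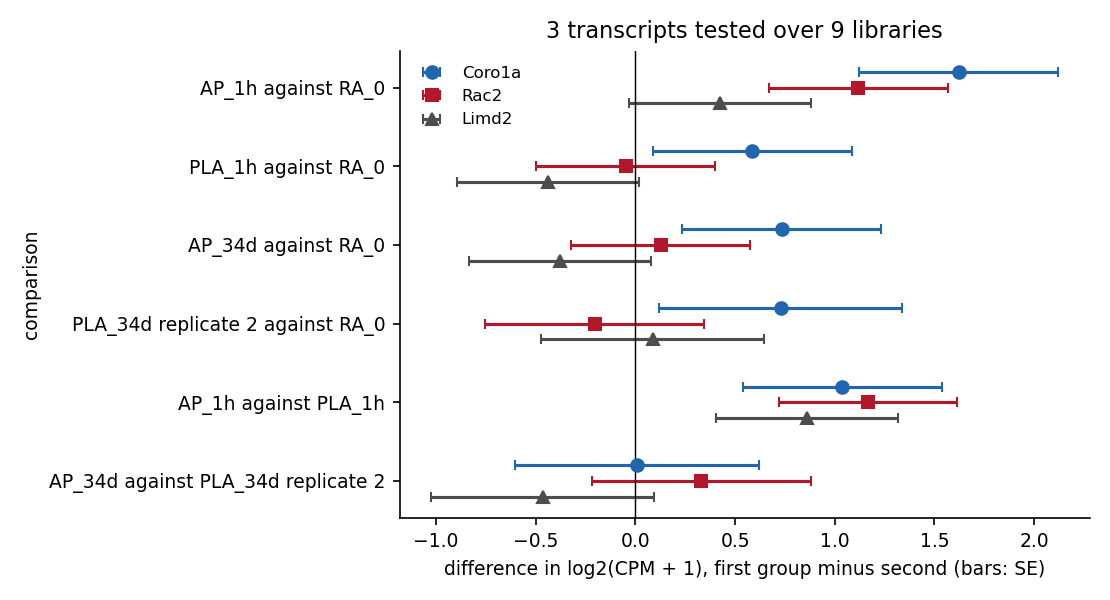
Difference in log2(CPM + 1) between the groups of each comparison for Coro1a, Rac2 and Limd2, with SE bars, from the fit over 9 libraries. The values farthest from 0 are those of AP_1h against RA_0 (Coro1a, 1.62) and against PLA_1h (Rac2, 1.17), and none passed the adjusted threshold.

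The other genes of these pathways were taken from 6 lists, of which 90 of 102 listed genes were in the table. PLA_34d replicate 1 was the highest library for 78 of the 90, and at least 4-fold above the next for 46, beside 3058 and 365 of all 13534 symbols with reads. The median log2 difference, on the log2(CPM + 1) scale, between PLA_34d replicate 1 and the highest other library was 1.43 over the lists and -0.40 over all symbols. These lists were written with the earlier results known, so the counts are a description.

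Within the B cell receptor and coreceptor list, 18 of 20 genes were highest in PLA_34d replicate 1 and 13 were at least 4-fold above. The genes of highest mean level were those that other cells use too. Cd81, the tetraspanin partner of Cr2 found on most cells, was at 118 CPM there against 122 to 189 CPM, Pik3ap1 at 38.5 against 9.48 to 39.6 CPM, Cd38 at 42.6 against 3.59 to 16 CPM, and Syk, the kinase that Cd79b recruits, at 56.1 against 1.91 to 8.86 CPM. Cd81 thus did not follow Cr2, with which it forms a complex on B cells.

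Of the B cell transcription factors, 9 of 11 were highest in PLA_34d replicate 1. Ikzf1, the lymphoid zinc finger factor Ikaros, was at 52.5 CPM against 0.477 to 1.73 CPM and Pou2af1, the B cell coactivator of octamer factors, at 52.0 against 0 to 1.82 CPM. Bcl6, which also acts outside lymphocytes, was lower there, at 51.8 against 98.0 to 229 CPM, and Tcf3 was within the range, at 9.76 against 7.14 to 16.8 CPM.

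For lymphocyte homing the count was 12 of 13, with S1pr1, the receptor for exit from nodes, at 111 against 52.7 to 84.8 CPM, Klf2 at 26.6 against 8.52 to 32.3 CPM, Cxcr4 at 38.0 against 4.76 to 16 CPM and Itga4 at 34.8 against 1.95 to 20.5 CPM. For high endothelium and node stroma it was 11 of 14. Ccl21, the chemokine that draws lymphocytes and dendritic cells into nodes, was at 314 CPM against 6.30 to 66.6 CPM and Cxcl12 at 156 against 41.6 to 90.7 CPM, while Clu, at 473 against 233 to 463 CPM, and Ltbr, at 30.4 against 29.0 to 58.0 CPM, hardly left the range of the other libraries.

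In the network of Btla, HVEM and lymphotoxin, which holds Tnfrsf14, 10 of 12 genes were highest in PLA_34d replicate 1, with Ltb, a subunit of membrane lymphotoxin, at 43.7 CPM against 3.29 to 10.6 CPM and Traf3 at 87.3 against 17.2 to 62.0 CPM. The broadly used Tnfrsf1a, at 32.6 against 24.4 to 88.0 CPM, and Traf2, at 33.3 against 30.0 to 49.4 CPM, were not. Among leukocyte actin and Rac regulators it was 18 of 20, with Lcp1, an actin bundler of leukocytes, at 239 against 12.4 to 45.8 CPM, Arhgdib, a GTPase inhibitor of blood cells, at 170 against 15.5 to 36.4 CPM, Arpc1b at 147 against 32.1 to 82.1 CPM and Ncf1, a subunit of the phagocyte oxidase, at 96.7 against 11.1 to 59.6 CPM.

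In this list the second library repeated the pattern of Coro1a and Rac2, as AP_1h replicate 1 was the highest of the other 9 for 15 of 20 genes. Of the 6 broadly expressed relatives of the chosen genes, 2 were highest in PLA_34d replicate 1 and 0 were at 4-fold. Among all 13534 symbols with reads, 3058 were highest there and 365 were at 4-fold. The chosen genes were picked for their level in this library, so nothing is read from a contrast with them. The 2 relatives highest there, named after their values had been seen, were the coronins Coro1b, at 67.0 against 20 to 33.2 CPM, and Coro1c, at 38.7 against 16 to 24.1 CPM. Rac1, the ubiquitous relative of Rac2, was at 91.6 CPM there and 93.9 to 140 CPM elsewhere, and Cdc42, Limd1 and Rhog stayed within or below the range of the other libraries, at 192 against 198 to 268 CPM, 44.8 against 26.2 to 61.7 CPM and 48.5 against 22.7 to 51.9 CPM.

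In the fits without PLA_34d replicate 1, 61 of the listed genes were tested and limma called 0 of them in the 6 comparisons. At an unadjusted p under 0.05 there were 12 for AP_1h against RA_0, of which 9 were higher in AP_1h, beside 1004 of all transcripts, of which 437 were higher. There were 5 for AP_1h against PLA_1h, where 474 of the 10152 transcripts passed this p, and 0 for PLA_1h against RA_0, where 306 did. At 34 days there were 3 for AP_34d against RA_0 beside 518 of all, 1 for PLA_34d replicate 2 against RA_0 beside 157, and 4 for AP_34d against PLA_34d replicate 2 beside 275. The median log2 difference of the listed genes for AP_1h against RA_0 was 0.32, while that of all transcripts was 0.0019. This list median depended on which AP_1h rat was kept. It was 0.083 without AP_1h replicate 1 and 0.64 without AP_1h replicate 2, beside -0.025 and 0.0094 for all transcripts.

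Markers of the cells that could bring these transcripts along were summed for each library. The 8 B cell markers in the table, 3 of which are Cr2, Ms4a1 and Cd79b themselves, came to 381 CPM in PLA_34d replicate 1, 12.2 CPM in AP_1h replicate 2, 5.26 CPM in PLA_34d replicate 2 and 0.954 to 3.24 CPM in the other 7, and all 8 were highest in PLA_34d replicate 1. Cd22, an inhibitory coreceptor, was at 70.8 CPM there and at 0 to 1.68 CPM elsewhere. Cd79a and Pax5 were not analysed here.

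T cell markers reached a similar sum, although none of the chosen transcripts is specific to T cells. All 9 were highest in PLA_34d replicate 1, with 295 CPM against 7.28 to 32.9 CPM, and here AP_1h replicate 1 came next. Cd4 was at 53.4 against 2.94 to 12.1 CPM, Lck, the kinase of the T cell receptor, at 49.2 against 0.351 to 4.43 CPM, Cd3e at 36.3 against 0.195 to 4.22 CPM and Ccr7, the receptor of Ccl21, at 45.2 against 0 to 0.995 CPM. AP_1h replicate 2, which came second for B cell markers, had 7.42 CPM, close to the lowest sum.

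The 4 high endothelium markers summed to 178 CPM in PLA_34d replicate 1, nearly all of it Glycam1, 4.83 CPM in PLA_34d replicate 2 and 0 to 1.51 CPM in the others. Plasma cell markers did not share the pattern as a whole, with 138 CPM against 98.3 to 214 CPM, set by the widely used Xbp1 at 103 against 90.1 to 209 CPM, although Mzb1, a chaperone of antibody-secreting cells, was at 18.2 against 0.175 to 1.96 CPM. Sdc1 was at 10.1 against 2.42 to 13.8 CPM and Prdm1 at 6.51 against 0.716 to 3.67 CPM. The 4 macrophage markers came to 106 CPM against 21.6 to 77.3 CPM, with Csf1r at 78.5 against 13.6 to 34.6 CPM but Cd163, at 7.07 against 3.34 to 19.9 CPM, Cd68, at 15.9 against 2.84 to 24.0 CPM, and Emr1, at 4.04 against 1.42 to 4.87 CPM, inside the range. The 8 genes of MHC class II, carried by B cells, dendritic cells and macrophages, came to 1537 CPM in PLA_34d replicate 1, 1082 CPM in AP_1h replicate 1 and 200 to 487 CPM in the others.

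Skeletal muscle markers went the other way, with 79104 CPM over Acta1, Myh4, Ckm and Tnnt3 in PLA_34d replicate 1 and 86567 to 245985 CPM in the other 9. The lowest of these 9 was PLA_1h replicate 1, whose T cell markers summed to 14.9 CPM, and AP_1h replicate 1 came next, at 109863 CPM. Adipoq, a gene of fat cells, was at 73.0 CPM against 1.67 to 21.1 CPM, and Cfd, at 54.2 against 8.11 to 44.5 CPM, and Plin1, at 16.4 against 0 to 8.61 CPM, were highest there too, whereas Fabp4, at 138 against 115 to 318 CPM, was not. Of the 7 fat cell genes, 4 were highest in this library. Red cell genes were lowest in PLA_34d replicate 1, at 240 CPM against 246 to 667 CPM. The part of lymphocyte, vessel, fat or muscle content in the levels of the 8 transcripts was not tested.

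**Figure D5:**
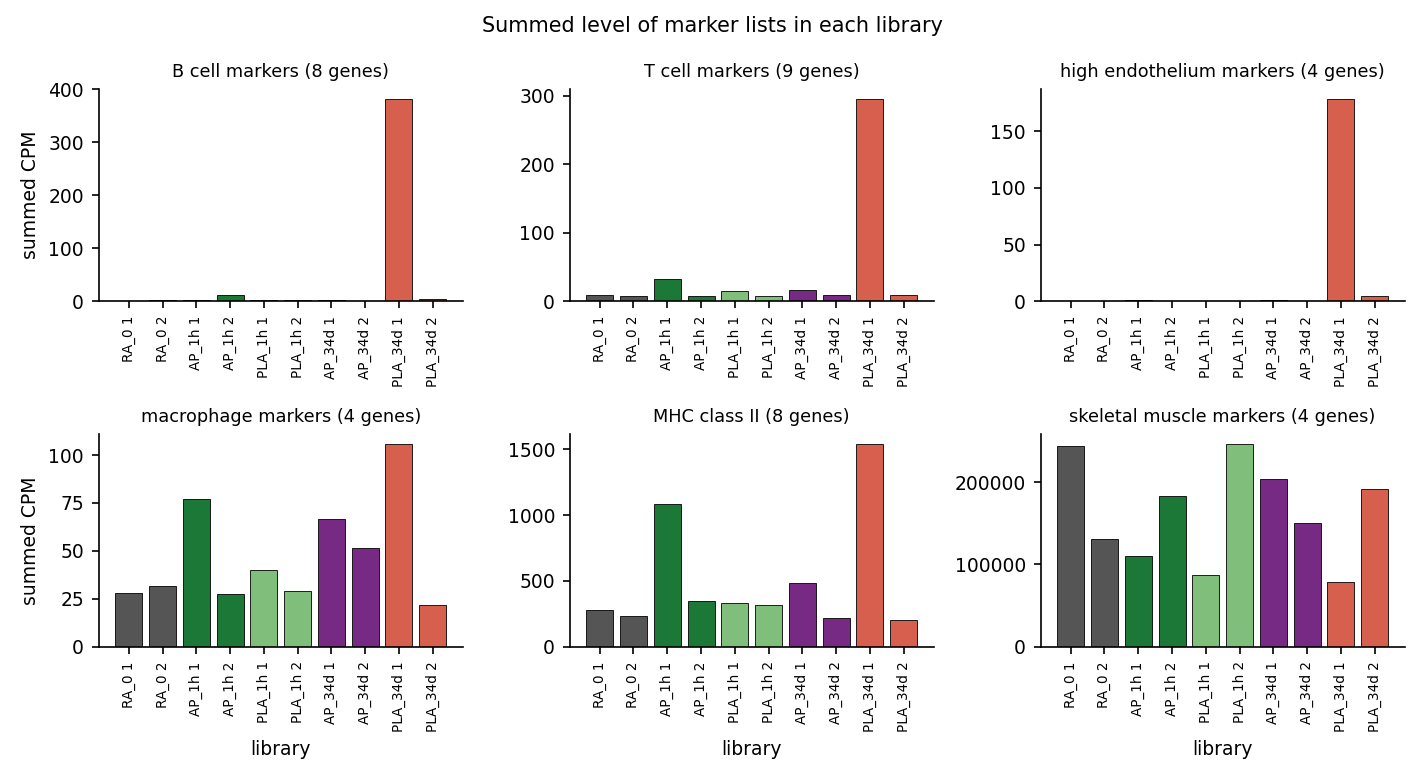
Summed CPM of marker lists in each library, coloured by group, each panel with its own scale from 0. B cell, T cell and high endothelium markers stand at 381, 295 and 178 CPM in PLA_34d replicate 1, macrophage and MHC class II sums are high in AP_1h replicate 1 as well, and skeletal muscle markers are lowest in PLA_34d replicate 1.

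The transcripts whose centred log2(CPM + 1) profile over the 10 libraries lay nearest to the mean profile of the 8 were Cd22, Il21r, Pou2af1, Lax1, Gpr174, Slamf6, Cd209b, Marco, Ikzf1 and Acap1. Their root mean square difference from it was 0.314 to 0.375, where the median of all transcripts with reads was 1.67 and the 8 themselves lay at 0.362 (Ms4a1) to 0.822 (Glycam1). All 10 were highest in PLA_34d replicate 1, at 26.0 CPM (Marco) to 75.8 CPM (Il21r). Cd209b, a lectin of macrophages that line lymphoid sinuses and marginal zones, was at 29.4 CPM there, 1.12 CPM in AP_1h replicate 2 and 0 to 0.284 CPM in the rest. Marco, a scavenger receptor of such macrophages, was at 26.0 CPM, with 0 to 0.284 CPM elsewhere.

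Among the 5 transcripts nearest to Glycam1 alone were Ccr7, Pou2af1 and Il21r, at 0.839 to 0.928. No transcript came as near to Glycam1 as the 10 above came to the mean profile, and of these 3 Ccr7 alone had its second highest level in the same library as Glycam1, at 0.995 CPM in PLA_34d replicate 2. This nearness over 10 libraries rests mainly on 1 of them.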

How the data were processed

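Tissue from beneath the skin, labelled as muscle, was profiled by poly-A RNA-seq (Illumina TruSeq). Per the submitters' processing notes, CASAVA 1.8.2, cutadapt 1.2.1, Bowtie2 2.1.0 (rn4), HTSeq 0.5.4p3 and edgeR 3.4.2 were used, and reads were counted per transcript of the UCSC annotation. The authors deposited, for every transcript and library, a signal in CPM, that is reads per 1000000 after TMM scaling. Dividing by the size of 1 read gave whole numbers for 100% of values in each library (within 0.01 read), and these recovered reads served the count tests. Groups follow the labels, and the 10 libraries come from 10 rats.

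The members and gene lists were chosen with earlier results of these data known. limma 3.58.1 (R 4.3.3) was fitted to log2(CPM + 1) with a mean trend in eBayes on 9 libraries (4 residual degrees of freedom and 6.07 prior ones), without PLA_34d replicate 1, which chose the members. PLA_34d was then 1 library whose spread was taken from the other groups. A fold change on this scale understates that of low transcripts. Alternatives were pseudocounts of 0.25 and 4, other filters and scalings, a replicate block, limma-voom, edgeR 4.0.16, DESeq2 1.42.0 and each library left out. Further ones were the compared groups alone, a fit without the mean trend and a fit of all 10 libraries. The fit of all 10 libraries, and a filter over all 5 groups, used PLA_34d replicate 1.

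Text names all 8 members, each tested member's comparison of smallest p, the transcripts nearest in profile, up to 4 genes of highest mean level per list, and markers at 0, except some genes that are not reported here. Of the 8 transcript identifiers 7, and of the symbols 8, matched the GRCr8 gene table. Python 3.11.15, scipy 1.17.1 and matplotlib 3.10.9 were used.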

Additional observations from a re-analysis of the deposited data

Results flagged for a closer look

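The 8 members are listed here because PLA_34d replicate 1, a library outside the main tests, exceeded both RA_0 libraries in each of them. Its levels were 172 CPM for Glycam1, 91.4 CPM for Cr2, 50.8 CPM for Ms4a1 and 72.0 CPM for Cd79b. Those of the wider leukocyte transcripts were 178 CPM for Coro1a, 90.6 CPM for Tnfrsf14, 105 CPM for Rac2 and 117 CPM for Limd2. The members were chosen by these levels, and the cause was not tested.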

How the results depend on the processing

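The tested log2 differences of Coro1a, Rac2 and Limd2 kept their sign in all 24 alternatives each, and the counts of members called stayed at 0 in all alternatives for the 4 comparisons without PLA_34d. A fit of all 10 libraries and a filter over all 5 groups are among these alternatives. Both used PLA_34d replicate 1, which chose the members, and 6 members passed that filter where 3 passed the main one. Nothing is read from the 0 calls of these alternatives. Without a filter, limma called 1 member, Glycam1, for PLA_34d replicate 2 against RA_0 and 1, again Glycam1, for AP_34d against PLA_34d replicate 2 (log2 change 2.36 and -2.36, adjusted p = 0.00245 each), where its estimated spread within groups is 0 because every other fitted library was at 0. Coro1a's adjusted p for AP_1h against RA_0 ran from 0.0951 (DESeq2) to 0.878, Rac2's for AP_1h against PLA_1h from 0.425 to 1.00 and Limd2's from 0.674 to 1.00. Leaving out 1 library gave log2 differences of 0.93 to 2.31 for Coro1a, 0.49 to 1.84 for Rac2 and 0.26 to 1.46 for Limd2.

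Calls of listed genes, 0 over the 6 comparisons, became 1 with quantile normalization (Cxcl13), 6 with DESeq2 (Cxcl13 in AP_1h against both RA_0 and PLA_1h, and Fcgr2b, Hcls1, Itgb2 and, with a lower level, Ncf1 in AP_1h against RA_0) and 2 with the compared groups alone (Cxcl13 and Hcls1), and 0 to 1 when a library was left out, 1 (Cxcl13) without either AP_34d library. The correlations of replicate differences ran from -0.47 to 0.32 over 6 pairs of groups. With 1 such difference in each group, they cannot decide whether equal replicate numbers pair the samples. The replicate block left 0 members and 0 listed genes called, and took the calls over all transcripts for AP_1h against RA_0 from 6 to 1. Over all alternatives these calls ran from 0 to 214 (DESeq2), from 0 to 14 for PLA_1h, 46 for AP_34d and 6 for PLA_34d replicate 2 against RA_0, to 56 for AP_1h against PLA_1h and to 8 for AP_34d against PLA_34d replicate 2. AP_1h against RA_0 also had 118 with the compared groups alone and 65 and 67 without AP_34d replicate 1 or 2. The causes were not tested.

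The median log2 ratio of PLA_34d replicate 1, 4.53 against the highest other library, was 7.67 against the median of the other 9 (over 7 members with reads there) and 5.43 against PLA_34d replicate 2, and 4.29 to 4.83 when a library was left out. The 5 members left out of the tests had 0 to 43 reads in each of the other 9 libraries. Without a filter limma's smallest adjusted p was 0.565 for Tnfrsf14, 0.669 for Cr2, 0.743 for Cd79b and 0.760 for Ms4a1.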

Other observations

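The 2 B cell lists as a whole did not follow Cr2, Ms4a1 and Cd79b in which AP_1h rat led. Apart from PLA_34d replicate 1, the highest library was AP_1h replicate 1 for 8 of 19 receptor and coreceptor genes and AP_1h replicate 2 for 5, and these counts were 6 and 2 of 11 for the transcription factors. Irf4 was at 4.22 CPM in AP_1h replicate 1 and 2.1 CPM in replicate 2, Ikzf3 at 1.19 and 0.140 CPM, and Cd37 at 8.11 and 2.80 CPM. Other genes had the opposite order. Bank1, a B cell adaptor, was at 1.54 CPM in AP_1h replicate 2, 0.569 CPM in PLA_34d replicate 2 and 0 to 0.297 CPM in the other libraries apart from PLA_34d replicate 1, where it was at 24.8 CPM. Spib, an Ets factor of B cells and plasmacytoid dendritic cells, was at 2.1 CPM in AP_1h replicate 2 and 46.6 CPM in PLA_34d replicate 1, with 0 to 1.09 CPM in the rest. All 5 were named after their values had been seen.

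Cxcl13, the chemokine that draws B cells into follicles, had another order, with both AP_1h libraries high. It was at 33.8 and 15.5 CPM in AP_1h, 0.477 and 2.38 CPM in RA_0, 4.26 and 1.40 CPM in PLA_1h, 2.93 and 1.34 CPM in AP_34d, and 58.0 and 2.70 CPM in PLA_34d. It did not pass limma's adjusted threshold over the 9 libraries. Itgb2, the beta chain of leukocyte integrins, chosen in the same way, was at 28.3 and 5.74 CPM in AP_1h against 2.62 and 3.56 CPM in RA_0, and at 46.7 CPM in PLA_34d replicate 1. Cd74, the MHC class II chaperone, was at 442 CPM in AP_1h replicate 1 and 680 CPM in PLA_34d replicate 1, with 95.2 to 215 CPM in the other 8 libraries.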
